A study of Mus musculus with 203 samples.

Results

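The 39 *Hox* genes of the deposited count table, all those named *Hoxa*, *Hoxb*, *Hoxc* or *Hoxd* with a number, were described across single neurons of the mouse nucleus ambiguus (Amb). They are 39 of 24029 genes in the table and were chosen by name alone. The mice were wild type, of strain C57BL/6 by the labels and C57BL/6NCrl by the study's methods, and no other genotype was used. Cholera toxin B, a fluorescent tracer carried back from axon terminals to cell bodies, was injected on postnatal day 1 either into the pericardial space around the heart or into the cricothyroid muscle of the larynx, and labeled neurons were aspirated from brainstem slices on postnatal days 2 to 4. Neurons labeled from the heart fall into 53 ACP (ambiguus cardiopulmonary) and 98 ACV (ambiguus cardiovascular) neurons, and the 52 laryngeal neurons are defined by their injection site. Laryngeal neurons were labeled in other mice than the cardiac ones, so mouse and target cannot be told apart.

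*Hox* genes encode homeodomain transcription factors that give cells of the hindbrain and spinal cord a position along the head-to-tail axis. They lie in 4 clusters on different chromosomes, and genes at the same place in each cluster form a paralog group, numbered 1 to 13 from the head end. In the hindbrain, low-numbered groups are expressed from more rostral levels, and groups 4 and 5 from caudal levels, where vagal motor neurons arise. The proteins bind DNA together with Pbx and Meis partners, and retinoic acid is a known inducer of the genes toward the head end of each cluster.

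ACP and ACV neurons were told apart in the study by clustering on these same counts, and *Hoxa5* served there as an ACV marker. The study listed *Hoxa5*, *Hoxc4*, *Hoxb5* and *Hoxc5* as enriched in ACV neurons and as not expressed in laryngeal neurons. Here each of these genes had at least 1 read in some laryngeal neurons, as given below. In the same order, 10, 20, 21 and 3 of 52 laryngeal neurons had at least 5 reads. The study's list states no cutoff for expression, so the measures may differ. Because the clustering used these counts, differences between ACP and ACV neurons, *Hoxa5* above all, are descriptions and not independent evidence. No label ties a neuron to a mouse or plate, so each type counts as 1 sample and no test was made. Intervals given below are exact (Clopper-Pearson, 95%) and are for shares of neurons. They treat each neuron as an independent draw and do not cover differences between mice. PCR copies were not marked by molecular identifiers, so reads are not counts of molecules.

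Counts outside *Rn45s*, the pre-ribosomal RNA that took 37%, 38.5% and 58.2% of the counts of an average ACP, ACV and laryngeal neuron, had medians of 1115375, 1120511.5 and 560892 per neuron. Levels are means over neurons of counts scaled to 1000000 outside *Rn45s* (CPM). Because laryngeal neurons were shallower, detection was also computed at a matched depth of 300000 counts, which all 53 ACP and 98 ACV neurons and 44 of 52 laryngeal neurons reached. *Apoe*, a glial gene, exceeded 1800 counts in 11 ACP and 28 ACV neurons and in 0 laryngeal neurons. Such neurons were to be removed in the study's quality control. They were kept here, and some results are also given without them. All 6 microglial markers (*C1qa*, *C1qb*, *C1qc*, *Cx3cr1*, *P2ry12* and *Csf1r*) were past 2-fold in mean level in both ACV and laryngeal over ACP neurons. Their summed level had medians of 6.56, 17.6 and 31.2 CPM in ACP, ACV and laryngeal neurons and reached 648, 5093 and 1878 CPM, and no marker was at 0 in any type. All 8 cholinergic motor neuron markers, among them *Isl1*, *Chat* and *Prph*, had reads in all 3 types, with median sums of 3610, 4007 and 4903 CPM. Most interneuron markers were higher in laryngeal neurons, where excitatory *Slc17a6* had a median of 74.7 CPM, against 7.83 in ACP and 7.45 in ACV, and the 4 inhibitory markers summed to a median of 58.2 CPM, against 28.4 and 9.64. Of the inhibitory markers, *Slc6a5* was instead highest in ACP neurons, with a mean of 53.4 CPM in ACP, 18.4 in ACV and 30.5 in laryngeal neurons. Astrocyte, oligodendrocyte, precursor and endothelial marker sums had medians up to 1822 CPM, the astrocyte value in laryngeal neurons, and the part of these cells and of interneurons in the results below was not tested.

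Reads fell on 27 of the 39 genes, and 12 genes had a read in at least 25% of the neurons of some type. These 12 were all members of groups 2 to 5, namely *Hoxa2*, *Hoxb2*, *Hoxa3*, *Hoxb3*, *Hoxd3*, *Hoxa4*, *Hoxb4*, *Hoxc4*, *Hoxd4*, *Hoxa5*, *Hoxb5* and *Hoxc5*. Another 12 genes had no read in any neuron: *Hoxb1*, *Hoxb9*, *Hoxc9*, *Hoxd9*, *Hoxa10*, *Hoxc10*, *Hoxa11*, *Hoxc12*, *Hoxd12*, *Hoxa13*, *Hoxb13* and *Hoxd13*. With 0 neurons of a type showing a read, the limit on the share, here taken as 3 neurons of the total and not as an exact interval, was 5.66% in ACP, 3.06% in ACV and 5.77% in laryngeal neurons. The remaining 15 genes stayed under 25% in every type.

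On GRCm38, the build also called mm10, *Hoxa5* lies at chr6:52201754-52204587 on the minus strand and *Hoxb5* at chr11:96303336-96306121 on the plus strand. *Hoxc4* and *Hoxc5* lie at chr15:103018934-103036852 and chr15:102967443-103017429, and *Hoxb2* lies at chr11:96350525-96354012, all on the plus strand. All 5 are protein-coding genes in GENCODE vM21.

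The RefSeq promoter table (GRCm38.p6) matched 22 of the 39 genes, with 24 windows. The 250 bases before the start of 3 genes of groups 4 and 5 are shown because these genes were past 2-fold in ACV over ACP neurons and their windows overlap no annotated exon. The window of *Hoxc4* lies within an exon and is not shown. Capitals mark matches, on either strand, to AGGTCA, a part of retinoic acid receptor binding elements, or to TATAAA, the letters of a TATA box. Lower case marks all other bases.
Hoxa5, chr6:52204588-52204837, minus strand: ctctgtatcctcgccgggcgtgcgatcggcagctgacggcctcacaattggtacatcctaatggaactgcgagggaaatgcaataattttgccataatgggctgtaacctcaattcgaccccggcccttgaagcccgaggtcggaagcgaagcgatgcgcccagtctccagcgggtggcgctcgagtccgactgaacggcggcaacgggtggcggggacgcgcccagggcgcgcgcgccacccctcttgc
Hoxb4, chr11:96318017-96318266, plus strand: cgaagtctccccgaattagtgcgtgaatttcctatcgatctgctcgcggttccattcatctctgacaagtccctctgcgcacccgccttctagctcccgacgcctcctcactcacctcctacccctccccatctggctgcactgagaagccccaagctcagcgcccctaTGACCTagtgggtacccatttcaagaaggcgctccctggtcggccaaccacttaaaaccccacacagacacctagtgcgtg
Hoxd4, chr2:74721728-74721977, plus strand: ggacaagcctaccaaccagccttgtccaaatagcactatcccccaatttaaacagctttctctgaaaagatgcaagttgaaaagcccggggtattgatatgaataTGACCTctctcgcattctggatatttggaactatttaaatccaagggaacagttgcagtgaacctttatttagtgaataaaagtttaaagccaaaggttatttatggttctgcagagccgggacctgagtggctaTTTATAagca

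AGGTCA was found on the opposite strand of the *Hoxb4* window, beginning 81 bases before the start, and of the *Hoxd4* window, and not in that of *Hoxa5*. It occurs in 6 of the 24 *Hox* windows (25%) and in 14% of all 32851 windows of this length. TATAAA occurs in 4 *Hox* windows (16.7%) and in 12.4% of all windows. Among the windows shown it was only in that of *Hoxd4*, on the opposite strand, beginning 10 bases before the start. A Hox-Pbx motif (TGATNNAT) and a Meis motif (TGACAG), also sought on both strands, were in none of the 3 windows shown, and in 4 and 2 of the 24 *Hox* windows, against 7.68% and 15.9% of all windows. These are matches of letters, and binding was not measured.

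Paralog group 5 set ACV neurons apart by level. Its 3 genes together had 685 ± 647 CPM (SD, n = 98 neurons) in ACV, 25 ± 64.1 CPM (n = 53) in ACP and 35 ± 62.3 CPM (n = 52) in laryngeal neurons, a mean 27.4-fold higher in ACV than in ACP and 19.6-fold higher than in laryngeal neurons. The medians were 538, 1.06 and 7.39 CPM. The types overlapped, but 65 of 98 ACV neurons exceeded the highest ACP neuron (394 CPM) and 68 exceeded the highest laryngeal neuron (331 CPM). In the 35 ACV, 22 ACP and 20 laryngeal neurons without a read of the microglial markers, the group had 773, 31.7 and 31.9 CPM. In the neurons with at most 1800 *Apoe* counts it had 835, 25.2 and 35 CPM.

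**Figure D1:**
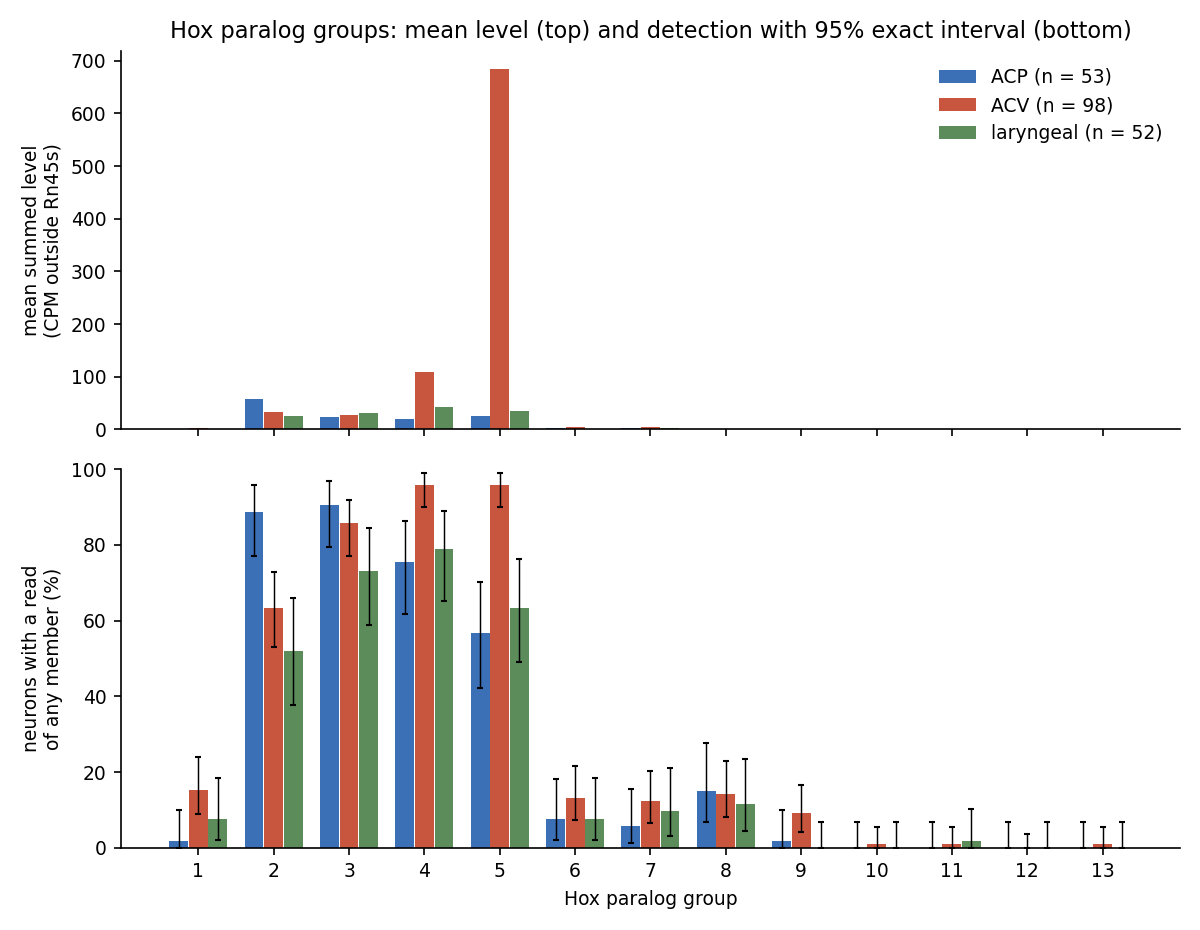
Mean summed level of each Hox paralog group in CPM (top) and share of neurons with a read of any member, with 95% exact intervals (bottom), for 53 ACP, 98 ACV and 52 laryngeal neurons. Group 5 reaches 685 CPM in ACV neurons and 25 and 35 CPM in ACP and laryngeal neurons, and groups 9 to 13 are detected in few neurons of any type.

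*Hoxa5* carried most of the group 5 level in ACV neurons, while in the other types *Hoxb5* had the higher mean. It was detected in 94 of 98 ACV neurons (95.9%, interval 89.9 to 98.9%), 20 of 53 ACP neurons (37.7%, 24.8 to 52.1%) and 19 of 52 laryngeal neurons (36.5%, 23.6 to 51.04%). Across ACV neurons it ran from 0 through a median of 356 to 1818 CPM, and the highest ACP and laryngeal neurons, whose medians were 0, reached 210 and 184.3 CPM. Thus 66 ACV neurons lay above every ACP neuron, and no ACP or laryngeal neuron reached the ACV median. The mean was 443 ± 401 CPM (SD) in ACV, 10.6 ± 32 in ACP and 12.6 ± 36.6 in laryngeal neurons, or 41.7-fold higher in ACV than ACP and 35.3-fold higher than laryngeal neurons. The log2 ratio of ACP over ACV was -5.38, and -5.98 without the highest neuron of each type.

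*Hoxb5*, its paralog in the Hoxb cluster, was detected in 85 ACV neurons (86.7%, 78.4 to 92.7%), 24 ACP neurons (45.3%, 31.6 to 59.6%) and 27 laryngeal neurons (51.9%, 37.6 to 66%). It ran from 0 through a median of 134.4 to 2651 CPM in ACV neurons, from 0 through 0 to 213 CPM in ACP neurons and from 0 through 1.12 to 146.8 CPM in laryngeal neurons. More ACV neurons overlapped the other types than for *Hoxa5*, with 24 of 98 above every ACP neuron and 46 above every laryngeal neuron. Its mean of 185.4 ± 309 CPM (SD) in ACV neurons was 13.6-fold that of ACP (13.6 ± 39.8 CPM) and 9.55-fold that of laryngeal neurons (19.4 ± 34.2 CPM).

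*Hoxc5* had the widest ratio of ACV over ACP and the lowest detection of the 3 paralogs, while against laryngeal neurons the ratio of *Hoxa5* was wider. It had reads in 56 ACV neurons (57.1%, 46.7 to 67.1%), in 2 ACP neurons (3.77%, 0.460 to 12.98%) and in 5 laryngeal neurons (9.62%, 3.20 to 21.03%). ACV neurons ran from 0 through a median of 26.4 to 475 CPM, and 51 of them lay above the highest ACP neuron (26 CPM), while a laryngeal neuron reached 118.5 CPM. Its mean of 56.8 ± 85.4 CPM (SD) in ACV neurons was 78.8-fold that of ACP (0.721 CPM, from 32 reads in all) and 18.7-fold that of laryngeal neurons (3.03 CPM). These ratios rest on few neurons: leaving out the highest of each type moved the log2 ratio of ACP over ACV from -6.30 to -7.81 and that of ACV over laryngeal neurons from 4.23 to 6.09. GENCODE puts 5.37% of the exon bases of *Hoxc5* also in *Hoxc10*, which had no read.

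**Figure D2:**
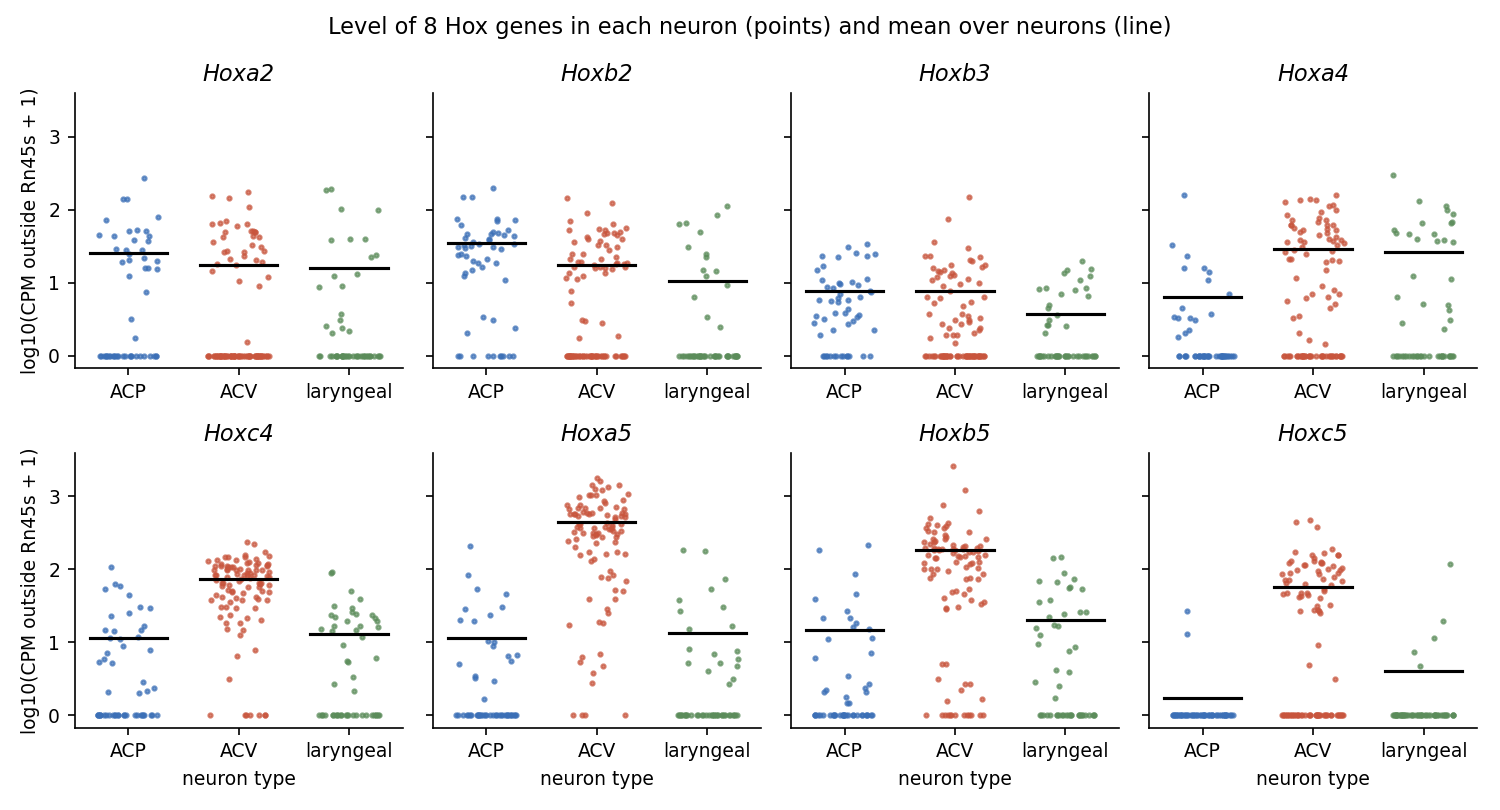
Level of 8 Hox genes in each neuron (points), as log10 of CPM outside Rn45s plus 1, with the log10 of the mean CPM plus 1 as a line, for 53 ACP, 98 ACV and 52 laryngeal neurons. Most ACV neurons lie above the other types for Hoxa5, while Hoxb2 has fewer neurons at 0 among ACP neurons than in either other type.

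Group 4 was also higher in ACV neurons, at 108.3 ± 72.9 CPM (SD), against 19.1 ± 31.2 CPM in ACP and 41.8 ± 60.5 CPM in laryngeal neurons. This is 5.66-fold over ACP and 2.59-fold over laryngeal neurons, which were themselves 2.18-fold above ACP neurons. Only 19 ACV neurons exceeded the highest ACP neuron and 2 the highest laryngeal neuron. The laryngeal mean was 1.70-fold that of ACP in neurons without microglial reads and 1.87-fold in those with at most 900 *Apoe* counts, under the 2-fold limit.

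Of its genes, *Hoxc4* was the most widely detected, in 91 ACV neurons (92.9%, 85.8 to 97.1%), 27 ACP neurons (50.9%, 36.8 to 64.9%) and 28 laryngeal neurons (53.8%, 39.5 to 67.8%). It ran from 0 through a median of 69.2 to 236 CPM in ACV, from 0 through 1.03 to 105.97 CPM in ACP and from 0 through 1.99 to 90.3 CPM in laryngeal neurons. Only 1 ACP and 2 laryngeal neurons passed the ACV median. The mean of 72.6 ± 49.2 CPM (SD) in ACV was 6.89-fold that of ACP and 6.06-fold that of laryngeal neurons.

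*Hoxa4* differed from *Hoxc4* in the laryngeal neurons. Its means were 5.48 ± 22.4 CPM in ACP, 27.8 ± 38.7 CPM in ACV and 25.2 ± 51.1 CPM in laryngeal neurons (SD), so that ACV and laryngeal neurons were 5.08-fold and 4.59-fold above ACP and 1.11-fold apart. A single ACP neuron at 159.02 CPM raised the ACP mean: without the highest neuron of each type, the log2 ratio of ACP over ACV went from -2.34 to -3.39 and that of ACP over laryngeal neurons from -2.20 to -2.96. Detection at matched depth was 23% in ACP, 56.6% in ACV and 40.6% in laryngeal neurons.

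*Hoxb4* and *Hoxd4* were sparser. *Hoxb4* had 0.647, 2.62 and 0.172 CPM in ACP, ACV and laryngeal neurons and was read in 13, 40 and 4 neurons, with no laryngeal neuron at 5 reads or more. *Hoxd4* had 2.48, 5.23 and 4.45 CPM and was read in 9, 36 and 9 neurons. The 2.11-fold ratio of *Hoxd4* between ACV and ACP fell to 1.35-fold in neurons without microglial reads. *Hoxd4* shares 388 exon bases with *Hoxd3* on the same strand, so reads of the pair may be divided by the counting.

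Paralog group 2, the most rostral group with wide detection, ran the other way, with 58.1 ± 51.5 CPM (SD) in ACP, 33.4 ± 40.4 in ACV and 24.9 ± 45 in laryngeal neurons. ACP neurons were 1.74-fold above ACV and 2.34-fold above laryngeal neurons. The neurons overlapped widely, and only 2 ACP neurons exceeded the highest of each other type. A read of either gene of the group was found in 47 of 53 ACP (88.7%, 77 to 95.7%), 62 of 98 ACV (63.3%, 52.9 to 72.8%) and 27 of 52 laryngeal neurons (51.9%, 37.6 to 66%).

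*Hoxb2* was the member that differed most. It was detected in 43 ACP (81.1%, 68.03 to 90.6%), 53 ACV (54.1%, 43.7 to 64.2%) and 15 laryngeal neurons (28.8%, 17.1 to 43.1%). It ran from 0 through a median of 28.4 to 199.7 CPM in ACP, from 0 through 2.04 to 144.2 CPM in ACV and from 0 through 0 to 110.9 CPM in laryngeal neurons. The means were 33.6 ± 39.4, 16.8 ± 25.9 and 9.66 ± 23.2 CPM (SD), with ACP 3.48-fold above laryngeal neurons and just under 2-fold above ACV. At matched depth the shares were 76.7%, 50.7% and 27.05%. The matched difference between ACP and ACV was 26.1 points, and it was under 25 points in the neurons with at most 1800 *Apoe* counts. *Hoxa2*, its paralog, had 24.5, 16.6 and 15.2 CPM and a largest ratio of 1.61-fold, between ACP and laryngeal neurons.

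Group 3 had similar sums in the 3 types, at 23.6 ± 25.8 CPM in ACP, 27.8 ± 33.6 in ACV and 31.6 ± 56.3 in laryngeal neurons (SD). Its genes did not move alike. *Hoxb3* had 6.68, 6.67 and 2.70 CPM, with 2.47-fold more in either cardiac type than in laryngeal neurons, and was read in 39 of 53 ACP, 50 of 98 ACV and 20 of 52 laryngeal neurons. Without microglial reads both log2 ratios of *Hoxb3*, 0.81 for ACP and 0.42 for ACV over laryngeal neurons, were under the 2-fold limit, as was that for ACV, 0.87, with at most 900 *Apoe* counts. *Hoxa3* had 4.76, 6.93 and 10.1 CPM, and the 2.13-fold ratio of laryngeal over ACP neurons rested on single neurons, since the log2 ratio of ACP over laryngeal neurons was -1.09 with and -0.84 without the highest of each type. *Hoxd3* had 12.2, 14.2 and 18.8 CPM. An antisense gene, *Hoxb3os*, covers 52.9% of the exon bases of *Hoxb3* and 27.3% of those of *Hoxb2*, and in libraries without strand its reads cannot be told from theirs.

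**Figure D3:**
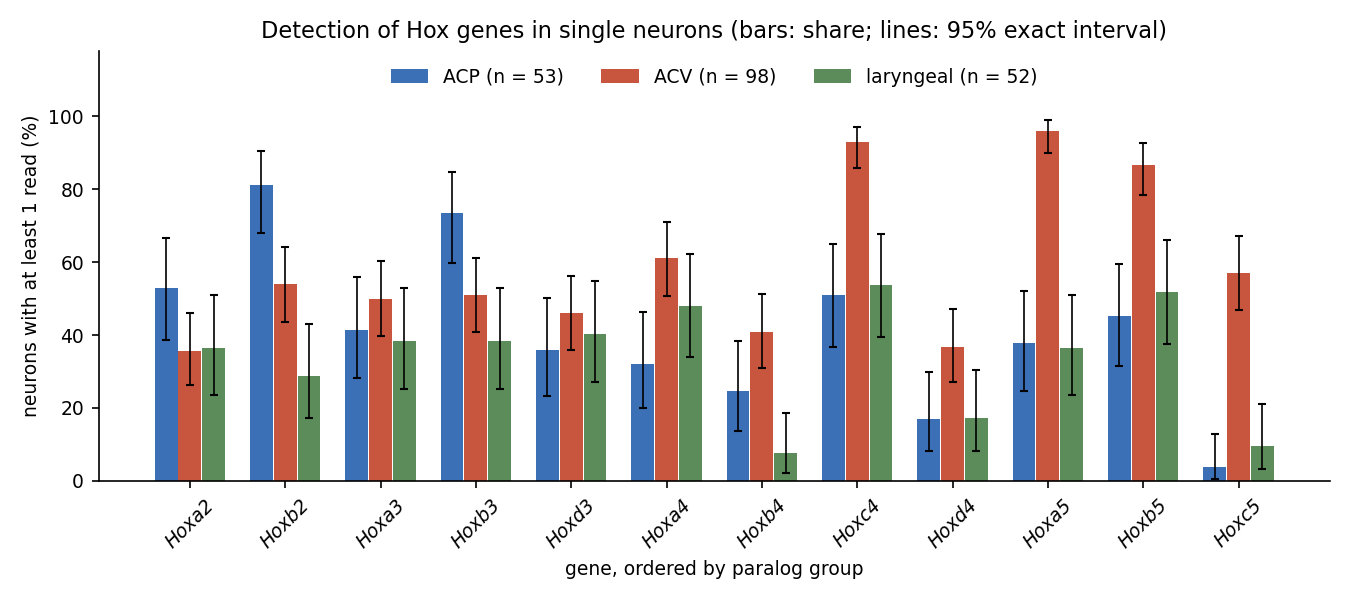
Share of neurons with at least 1 read of each of the 12 most detected Hox genes in 53 ACP, 98 ACV and 52 laryngeal neurons, with 95% exact intervals as lines. ACV neurons are highest for the genes of groups 4 and 5, with Hoxa5 at 95.9%, and ACP neurons are highest for Hoxb2 at 81.1% and Hoxb3 at 73.6%.

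The other paralog groups were sparse in all types. In group 1, *Hoxd1* was read in 2 laryngeal neurons and *Hoxb1* in 0 neurons. At least 1 gene of groups 6 to 13 was read in 13 ACP (24.5%), 37 ACV (37.8%) and 12 laryngeal neurons (23.1%), with mean sums of 5.83, 10.3 and 3.43 CPM. *Hoxb8* was read in 6, 13 and 5 neurons, *Hoxb6* in 3, 11 and 3, *Hoxb7* in 3, 11 and 5, and *Hoxa9* in 1, 9 and 0. Groups 10 to 13 had reads in at most 1 neuron of a type each.

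Levels of different genes were compared per kilobase of GENCODE exon, since longer transcripts give more reads. In ACV neurons *Hoxa5* led with 236 CPM per kilobase, followed by *Hoxb5* with 66.6, *Hoxc4* with 28.3, *Hoxc5* with 18.4 and *Hoxa4* with 17.5. In ACP neurons *Hoxa2* led with 13.8 CPM per kilobase, then *Hoxb2* with 9.63, *Hoxa5* with 5.66 and *Hoxb5* with 4.88. In laryngeal neurons *Hoxa4* led with 15.8 CPM per kilobase, then *Hoxa2* with 8.57, *Hoxb5* with 6.97 and *Hoxa5* with 6.69. On this scale each type had its own leading gene, though the SD over neurons exceeded most of these means. In ACP neurons the lead of *Hoxa2* depended on the measure. Without the length scale *Hoxb2* was higher there, with a mean of 33.6 CPM against 24.5 and a median of 28.4 CPM against 2.21. *Hoxb2* was also read in more ACP neurons, 43 against 28.

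Without the length scale, all 39 genes summed to 133.1 ± 101.1 CPM in ACP, 868 ± 699.9 in ACV and 137.5 ± 137.6 in laryngeal neurons (SD). Group 2 made up 43.7% of the ACP sum, and group 5 made up 78.9% of the ACV sum. In laryngeal neurons group 4 made up 30.4%, group 5 25.5%, group 3 23% and group 2 18.1%. ACP and laryngeal neurons therefore had like totals of different make-up.

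By cluster, the Hoxa genes summed to 47.1, 497 and 63.3 CPM in ACP, ACV and laryngeal neurons, and the Hoxb genes to 60.04, 221 and 35.2 CPM. The Hoxc genes summed to 11.4, 129.8 and 15.1 CPM. The Hoxd genes, which have no member in group 5, summed to 14.7, 19.6 and 23.9 CPM. ACV exceeded ACP 10.6-fold for Hoxa, 3.68-fold for Hoxb, 11.4-fold for Hoxc and 1.34-fold for Hoxd.

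The member counts were read against every gene of the table that passed a filter of a read in 10% or more of either type's neurons. Of the 39 genes, 16 passed this filter for ACP and ACV, and 8 were at least 2-fold higher in ACV (among them *Hoxa4*, *Hoxc4*, *Hoxa5*, *Hoxb5* and *Hoxc5*), where 8.63% of all genes were. None was 2-fold higher in ACP, where 9.87% of all genes were, *Hoxb2* lying just below at 1.999-fold. At matched depth, 5 genes (*Hoxa4*, *Hoxc4*, *Hoxa5*, *Hoxb5* and *Hoxc5*) were detected in at least 25 percentage points more ACV than ACP neurons, against 0.666% of all genes, and *Hoxb2* in more ACP than ACV neurons, against 1.48%. The median log2 ratio of ACP over ACV was -0.99 over the 16 and 0.00 over all genes that passed. The types having been clustered on these counts, nothing is read from the excess.

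Laryngeal neurons were not defined by the counts, though ACP and ACV were. Between ACV and laryngeal neurons 16 *Hox* genes passed the filter. At least 2-fold higher in ACV were 9 of them (among them *Hoxb3*, *Hoxb4*, *Hoxc4*, *Hoxa5*, *Hoxb5* and *Hoxc5*), against 10.4% of all genes, and 0 were higher in laryngeal neurons, against 14%. *Hoxb7*, 2.25-fold higher in ACV from 11 ACV and 5 laryngeal neurons with a read, was instead past 2-fold in laryngeal neurons among those with at most 900 *Apoe* counts. At matched depth, 4 were higher in ACV by 25 points or more (*Hoxc4*, *Hoxa5*, *Hoxb5* and *Hoxc5*), against 1.13% of all genes, and 0 in laryngeal neurons, against 2.83%. *Hoxb2*, at 1.74-fold and 23.6 points in ACV over laryngeal neurons, was under both limits here. It passed 2-fold with at most 1800 or 900 *Apoe* counts and without microglial reads, and 25 points at both *Apoe* limits. The median log2 ratio of ACV over laryngeal neurons was 1.24 for the 16 and -0.02 for all genes.

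Between ACP and laryngeal neurons 12 *Hox* genes passed the filter. Of these, *Hoxb2*, *Hoxb3* and *Hoxb4* were at least 2-fold higher in ACP, against 10.3% of all genes, and *Hoxa3* and *Hoxa4* were higher in laryngeal neurons, against 12.5%. At matched depth *Hoxb2*, by 49.7 points, and *Hoxb3*, by 31.9 points, were higher in ACP, against 1.24% of all genes, and 0 in laryngeal neurons, against 1.51%. Without microglial reads the genes past 2-fold in ACP were *Hoxa2* and *Hoxb2*, since *Hoxb3* and *Hoxb4* fell below the limit. In these neurons *Hoxb2* alone kept a difference of 25 points in favor of ACP, and *Hoxa4* gained one in favor of laryngeal neurons. The median log2 ratio of ACP over laryngeal neurons was -0.27 for the 12 and -0.03 for all genes.

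Single neurons held several *Hox* genes each. The number with a read had a median of 5 in ACP (1 to 10), 8 in ACV (0 to 16) and 4 in laryngeal neurons (0 to 13). At matched depth the expected medians were 4.03, 7.11 and 2.90, so the order of the types stayed when depth was equal. Only 1 ACV and 1 laryngeal neuron had no *Hox* read.

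**Figure D4:**
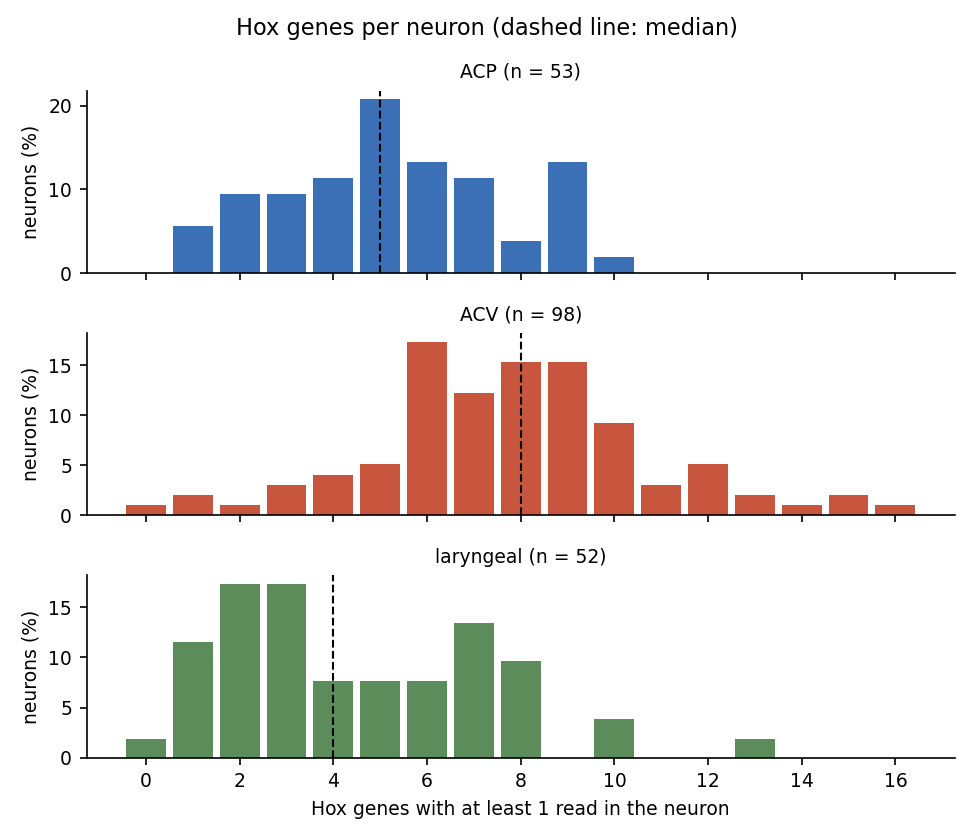
Share of neurons by number of Hox genes with at least 1 read, for 53 ACP, 98 ACV and 52 laryngeal neurons, with the median as a dashed line. The medians are 5, 8 and 4 genes, and the distributions overlap.

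For the joint reads given here, no excess over the shares of the single genes was computed. The group 5 genes were read together most often in ACV neurons, where the share of each gene was also highest. All 3 were read in 54 of 98 ACV neurons (55.1%, 44.7 to 65.2%), 1 of 53 ACP and 2 of 52 laryngeal neurons. Every ACV neuron with *Hoxb5* (85) or *Hoxc5* (56) also had *Hoxa5*, which was missing in only 4. *Hoxa5* and *Hoxb5* were read together in 14 ACP neurons (26.4%) and 13 laryngeal neurons (25%). None of the 3 was read in 23 ACP (43.4%, 29.8 to 57.7%), 4 ACV (4.08%, 1.12 to 10.1%) and 19 laryngeal neurons (36.5%, 23.6 to 51.04%).

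Groups 4 and 5 were jointly present, with at least 1 gene of each, in 92 ACV (93.9%), 27 ACP (50.9%) and 28 laryngeal neurons (53.8%). Taken singly, group 4 was read in 95.9%, 75.5% and 78.8% of these neurons and group 5 in 95.9%, 56.6% and 63.5%. The joint shares thus follow largely from the single ones. With at least 5 reads asked of each gene, the shares were 90.8%, 26.4% and 36.5%. *Hoxb2* without any group 5 gene was found in 20 ACP neurons (37.7%, 24.8 to 52.1%), 4 laryngeal neurons (7.69%, 2.14 to 18.5%) and 0 ACV neurons, which by the same limit of 3 neurons allows 3.06%. *Hoxb2* was not absent from ACV neurons: all 53 ACV neurons that had it also had *Hoxa5*. Since *Hoxa5* was read in 94 of 98 ACV neurons, this overlap was nearly set by its own share. Only 4 ACV neurons had no group 5 gene, so few could have shown *Hoxb2* without one, and nothing is read from the count of 0.

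**Figure D5:**
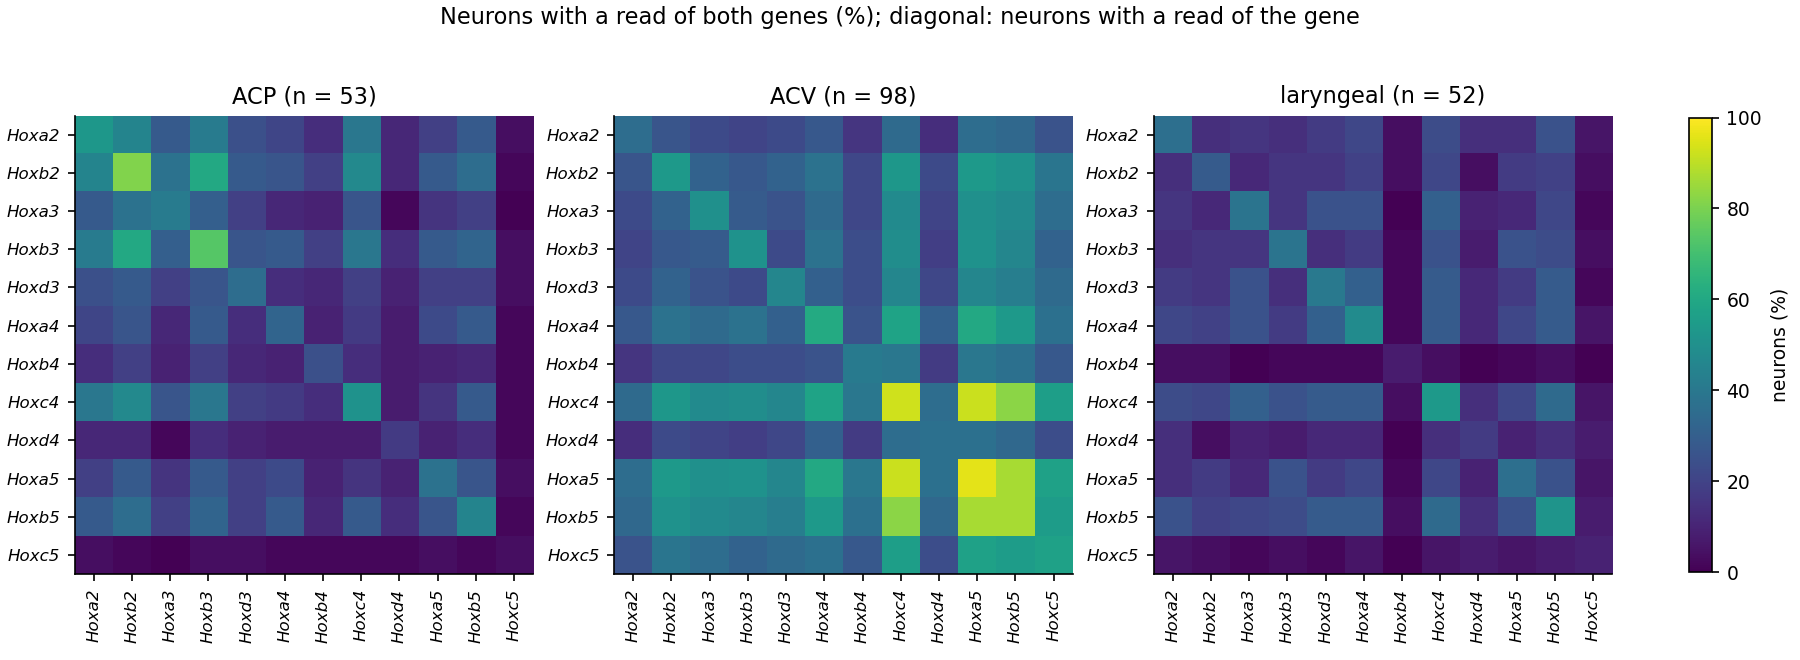
Share of neurons with a read of both genes for each pair of the 12 most detected Hox genes, with each gene's own share on the diagonal, in 53 ACP, 98 ACV and 52 laryngeal neurons. In ACV neurons the brightest block joins Hoxc4, Hoxa5 and Hoxb5, and in ACP neurons it joins Hoxb2 and Hoxb3.

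Levels within a type were compared over neurons as a description, the points sharing their scaling by each neuron's total. Over 98 ACV neurons Spearman's rho was 0.58 for *Hoxa5* with *Hoxb5*, 0.43 for *Hoxa5* with *Hoxc4*, and 0.40 for *Hoxc5* with each of *Hoxa5* and *Hoxb5*. *Hoxa5* with *Hoxb5* gave 0.43 over 53 ACP and 0.39 over 52 laryngeal neurons, where most values were low or 0. Not all pairs rose together. *Hoxa5* with *Hoxc4* gave -0.14 over ACP and 0.12 over laryngeal neurons. In ACP, ACV and laryngeal neurons, *Hoxa2* with *Hoxb2* gave -0.35, 0.14 and 0.05, and *Hoxb2* with *Hoxb3* gave -0.02, -0.05 and 0.23. *Hoxb5* with *Hoxc4* was positive in each, at 0.28, 0.28 and 0.39.

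Among the 9 TALE homeodomain cofactors listed with the *Hox* genes, all had reads in every type. *Pbx3*, a DNA-binding partner of Hox proteins, had 56.3 CPM in ACP, 168.7 in ACV and 56.05 in laryngeal neurons, 2.998-fold and 3.01-fold higher in ACV. *Pbx4* went the other way, with 30.3, 13.9 and 36.05 CPM. *Meis2* was highest in laryngeal neurons, with 58.2, 66.7 and 154.05 CPM. Between ACP and ACV, 3 of the 9 were 2-fold higher in ACV (*Pbx2*, *Pbx3* and *Pknox1*), against 8.63% of all genes, and 1 in ACP (*Pbx4*), against 9.87%. Between ACP and laryngeal neurons, 2 were higher in laryngeal neurons (*Meis2* and *Pknox1*), against 12.5% of all genes, and 0 in ACP, against 10.3%. Between ACV and laryngeal neurons, *Pbx3* was higher in ACV, against 10.4% of all genes, and 2 (*Pbx4* and *Meis2*) in laryngeal neurons, against 14%. The same shares of all genes are the background of the counts in the lists that follow.

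Of 15 listed regulators of *Hox* genes in the embryo, at most 8 passed the filter in a comparison. *Cyp26b1*, an enzyme that breaks down retinoic acid, had 18.5 CPM in ACP, 7.12 in ACV and 13.8 in laryngeal neurons. Between ACP and ACV, 2 of 8 that passed (*Rarg* and *Cyp26b1*) were 2-fold higher in ACP and 3 (among them *Aldh1a2*) in ACV. Laryngeal neurons had 3 of 7 higher and 1 lower than ACP, and 2 of 8 higher and 1 lower than ACV. Of 17 chromatin regulators in the table, such as the Polycomb subunits *Eed* (8.85, 10.1 and 25.1 CPM in ACP, ACV and laryngeal neurons) and *Suz12* (9.14, 10.1 and 32.3 CPM), all of which passed the filter, 0 were 2-fold higher in ACP, while 4 were higher in ACV than in ACP, against 8.63% of all genes, and 6 in laryngeal neurons than in ACP, against 12.5%. Between ACV and laryngeal neurons, 2 were higher in ACV and 3 in laryngeal neurons.

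Genes beside the clusters varied as well. *Skap2*, an adaptor protein gene beside the Hoxa cluster, had 24.2, 95.97 and 43.03 CPM in ACP, ACV and laryngeal neurons. *Skap1*, 96337 bases from *Hoxb1*, had 26.9, 33.6 and 1.82 CPM, 14.8-fold and 18.5-fold higher in ACP and ACV than in laryngeal neurons. *Smug1*, a DNA repair enzyme gene 116438 bases from *Hoxc4*, had 17.5, 31.2 and 10.7 CPM. *Mtx2*, 60661 bases from *Hoxd1*, had 124.4, 136.1 and 134.9 CPM. Of the 23 listed genes in the table, 9 passed the filter between ACP and ACV, of which 3 were 2-fold higher in ACV (*Hoxaas2*, *Hoxaas3* and *Skap2*), against 8.63% of all genes, and 0 in ACP, against 9.87%. Against laryngeal neurons, 1 of 8 that passed was higher in ACP, against 10.3%, 5 of 9 were higher in ACV, against 10.4%, and 0 were higher in laryngeal neurons. The antisense RNAs *Hoxaas2* and *Hoxaas3* overlap *Hoxa3* on the other strand, so their reads may be shared with it. The 6 microRNA genes of the clusters had no read. No library of small RNAs was made, so this does not show whether the microRNAs were expressed.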

How the data were processed

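Each sample was 1 neuron sequenced by Smart-seq2 (75 bp paired-end, full-length cDNA amplified by PCR). The authors trimmed reads with Skewer, aligned them to mm10 with STAR 2.6.1d and deposited raw counts per gene symbol with each neuron's target and type. The counting program, annotation and strand setting are not given in the sources used here. The deposited table named CPM was not used, since its columns do not sum to 1000000. No 2 neurons had identical values (highest correlation between neurons 0.93).

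Counts were scaled per 1000000 outside *Rn45s*. Genes with a read in at least 10% of neurons of either type were compared at 2-fold in mean level and, by the exact hypergeometric expectation at 300000 counts, at 25 points in share. A type at 0 was set to a floor of 3 counts over the group. With each type as 1 sample, no test was made, and edgeR and DESeq2 gave only scaling alternatives. All 39 genes entered the counts, and values were given for those read in at least 25% of a type; some genes are not reported here. Cofactors, regulators and neighbors were counted as lists, with values for the 2-fold members of wide detection and a few chosen after their values were seen. The members and lists were chosen with earlier results of these data known. Scaling, thinning and folds were checked on simulated counts. Gene positions came from GENCODE vM21, promoters from RefSeq (GRCm38.p6). Work used Python 3.11.15, numpy 2.4.6, pandas 2.3.3, scipy 1.17.1, R 4.3.3, edgeR 4.0.16 and DESeq2 1.42.0.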

Additional observations from a re-analysis of the deposited data

How the results depend on the processing

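No ratio past 2-fold of groups 2 to 5, the clusters or the 12 genes of wide detection changed sign under the alternatives run; *Hoxb7*, sparser, did so between ACV and laryngeal neurons with at most 900 *Apoe* counts. Of 372 values of counts and group ratios under alternatives, 313 stayed within the limits and 59 moved; of 288 for single genes, 227 stayed and 61 moved. The neurons with at most 1800 *Apoe* counts and those without microglial reads were alternatives chosen after seeing the data. Counts below are of *Hox* genes. The shares of all genes under these alternatives were not computed, so no excess is read from these counts. No paired analysis was possible because neurons carry no replicate numbers shared between types.

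Past 2-fold in ACP over ACV, the count of 0 became 1 with *Rn45s* in the totals, with TMM totals, with DESeq2 size factors, without the detection filter, at 1.5-fold and with at most 900 *Apoe* counts. In ACP over laryngeal neurons it became 5 without the filter. In laryngeal over ACP neurons it became 1 with *Rn45s* in the totals, without the highest neurons and at 3-fold, and 4 without the filter, at 1.5-fold and with at most 900 *Apoe* counts. In laryngeal over ACV neurons it became 1 without the filter, 2 with at most 900 *Apoe* counts and 1 without microglial reads.

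By matched share, ACP over ACV gave 3 at 15 points, 0 at 40 points and 0 with at most 1800 *Apoe* counts. ACP over laryngeal neurons gave 1 at 150000 counts, at 40 points and without microglial reads. Laryngeal over ACP neurons gave 2 at 15 points and 1 without microglial reads, and ACV over laryngeal neurons gave 7 at 15 points. With at least 1 read, the genes in at least 50% of neurons were *Hoxa2*, *Hoxb2*, *Hoxb3* and *Hoxc4* in ACP and *Hoxc4* and *Hoxb5* in laryngeal neurons. In ACV they were *Hoxb2*, *Hoxa3*, *Hoxb3*, *Hoxa4*, *Hoxc4*, *Hoxa5*, *Hoxb5* and *Hoxc5*. Genes in at least 50% of neurons numbered 2 in ACP, 5 in ACV and 0 in laryngeal neurons at 5 reads, 5 in ACV and 1 in laryngeal neurons without microglial reads, and 0 in laryngeal neurons at 300000 counts.

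With *Rn45s* in the totals the median log2 ratio over all genes was 0.58 for ACP over laryngeal and 0.52 for ACV over laryngeal neurons. The log2 ratios of ACP over laryngeal neurons then became 1.89 for group 2, 0.40 for group 3, -0.45 for group 4, 0.31 for group 5, 0.39 for Hoxa, 1.47 for Hoxb and 0.047 for Hoxd. Those of ACV over laryngeal neurons became 1.12, 0.53, 2.14 and 5.16 for groups 2 to 5, 3.91 for Hoxa, 3.37 for Hoxb and 0.42 for Hoxd. Signs so turned for ratios under 2-fold: groups 3 and 5, Hoxa and Hoxd in ACP over laryngeal neurons, and group 3 and Hoxd in ACV over laryngeal neurons. For ACP over laryngeal neurons, group 4 was -0.91 and Hoxb 1.14 with at most 900 *Apoe* counts, and group 4 was -0.76, Hoxb 1.49 and Hoxd 0.38 without microglial reads. For ACV over laryngeal neurons, Hoxb was 3.33 and Hoxd, whose sign turned in both comparisons, 0.70 without microglial reads.

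Joint detection of groups 4 and 5 was 26.4% in ACP and 36.5% in laryngeal neurons at 5 reads, and 34.6% in ACP and 97.7% in ACV with at most 900 *Apoe* counts. That of *Hoxa5* with *Hoxb5* at 5 reads was 13.2% in ACP, 76.5% in ACV and 13.5% in laryngeal neurons. The causes of these shifts were not tested. The shallower laryngeal neurons limit what can be said of genes read in few neurons.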
